A study of Mus musculus with 5 samples.

Results

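The genes described here make and assemble the small nuclear ribonucleoproteins (snRNPs) of the spliceosome: the U RNA genes, the genes of the Sm and LSm ring proteins, and the genes of the factors that methylate, export, import and cap. They were taken by gene symbol, with earlier results of these data known, and a gene entered only through probe sets that carry its symbol and no other. This gave 34 genes, read by 44 probe sets, of 19937 genes with a probe set of their own among 28187 tested probe sets. Where a gene had several probe sets, the brightest over the 5 arrays was used. The 34 comprised 5 U RNA genes, 6 Sm core genes, 14 LSm genes and 9 assembly and transport genes. Of the 31 protein-coding genes that the symbols name, 29 had a probe set of their own; Snrpf and Snrpn shared theirs with another symbol. No probe set carried a U1 or U2 gene alone.

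The RNA came from FLAG precipitates of NSC-34, a murine cell line made by fusing neuroblastoma with spinal cord motor neurons. There were 3 precipitates from cells with a 3XFLAG-flSMN construct (FLAG-SMN IP) and 2 from NSC-34 cells without a FLAG construct (control IP), each hybridised to its own single-colour array. SMN is the survival of motor neuron protein. Both kinds of cell were differentiated in 1% serum, received doxycycline at 3 µg/ml for 3 days, were cross-linked with 400 mJ/cm2 of ultraviolet light and went through the same FLAG beads, so the control IP gives the RNA that beads hold without a tagged protein. The labels leave unsaid whether the tagged line is a single clone and whether each replicate had its own culture, so every p-value reflects only the spread between these precipitates, which may be technical. RNA of the lysate was not analysed here. A lower or higher value in a precipitate therefore cannot be told apart from less or more of that RNA in the cells. Nor can a change in how many cells hold an RNA be told apart from a change in its amount per cell.

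As background, a spliceosomal snRNA is transcribed with a methylated cap, bound by the nuclear cap-binding complex and exported with the adaptor PHAX. In the cytoplasm the SMN complex closes a ring of Sm proteins around the RNA. The Sm proteins reach it from a methylosome of PRMT5, WDR77 and pICln, which dimethylates arginines in some of their tails. TGS1 then hypermethylates the cap, snurportin carries the particle back to the nucleus, and it passes through Cajal bodies, which coilin scaffolds. U6 follows another route: it is a polymerase III transcript and carries an LSm ring in place of the Sm ring. The values below are RNA levels in the precipitates, so for the protein-coding genes they concern the messenger RNA and not the protein.

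The arrays were closely matched, with medians of 5.25 to 5.39 on the log2 scale after robust multi-array averaging (RMA), which forces such a match. Presumed control probe sets had medians, used below as a rough floor, of 4.45, 4.33 and 4.30 in FLAG-SMN IP and 4.49 and 4.55 in control IP. FLAG-SMN IP replicate 1 stood apart from the others of its group, at Pearson r = 0.964 and 0.968 across probe sets against 0.989 between replicates 2 and 3. Smn1, the gene of the tagged protein, had signals of 9.89, 9.50 and 9.46 in FLAG-SMN IP and 8.10 and 7.64 in control IP; whether its probe set reads the construct was not tested. Of the 7 motor neuron-like markers, 3 lay above the floor on all 5 arrays, while Mnx1 and Slc5a7 lay above it on 0. All 8 general neuronal markers lay above it on all arrays. Their summed linear signal spanned 551 to 1468 in FLAG-SMN IP and 1546 to 1690 in control IP. FLAG-SMN IP replicate 1 lay above the mean of replicates 2 and 3 for all 8, by 0.27 (Map2) to 2.07 (Tubb3) log2 units. For 5 of the 8 the values were lower in FLAG-SMN IP with an unadjusted limma p under 0.05, and 0 passed the adjusted threshold of 0.05. Over all probe sets, 6.31% were lower and 4.14% higher at that unadjusted p. The part of these lower neuronal values in the differences below was not tested. The motor neuron-like markers summed to 211 to 227 against 232 to 250, with 0 higher and 0 lower at that p. The noradrenergic neuroblastoma markers summed to 1969 to 2193 against 2071 to 2516, with 2 higher and 2 lower of 7. Marker sums of the other cell types overlapped between the groups: astrocyte genes gave 81.3 to 82.3 against 74.0 to 89.8, oligodendrocyte genes 110.5 to 116.3 against 98.6 to 124.7, microglial genes 93.0 to 112.1 against 85.8 to 106.4, and fibroblast genes 258 to 318 against 254 to 290.

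None of the 34 genes passed the adjusted threshold of 0.05 in limma, where 0.0319% of all probe sets did (9 of 28187). The lowest adjusted p among them was 0.262, for Lsm12. An unadjusted p under 0.05 was found for 4 of 34 genes, 11.8%, beside 10.4% of all probe sets; Lsm3 was the 1 higher gene (background 4.14%), and Lsm12, Prmt5 and Wdr77 were the 3 lower genes (background 6.31%). The members' share at that p is therefore near the background. The groups did not overlap at 11 genes, 5 higher and 6 lower, which is 32.4% of the 34 against 25.3% of all probe sets. The median log2 difference over the 34 (FLAG-SMN IP minus control IP, as everywhere below) was 0.064, against 0.018 over all probe sets. None reached a difference of 1 log2 unit in size, a size that 3.15% of all probe sets reached.

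**Figure D1:**
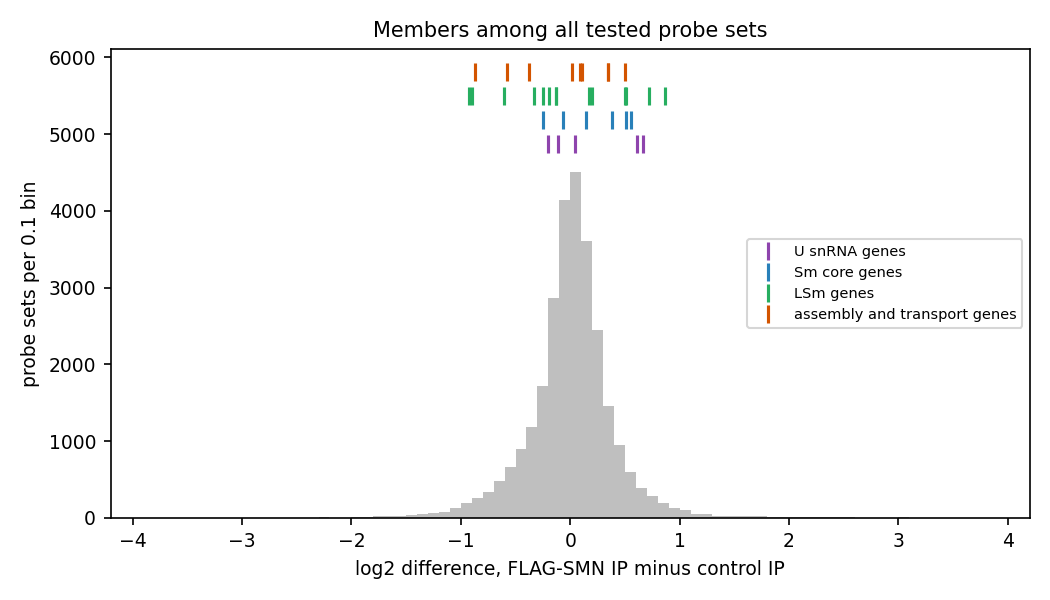
Histogram of the log2 difference between FLAG-SMN IP and control IP over 28187 probe sets (grey bars, 0.1-unit bins; vertical axis, probe sets per bin), with a tick above it for each of the 34 snRNP genes, coloured by role. All ticks lie between -0.92 (Lsm12) and 0.87 (Lsm6), on both sides of 0.

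Single arrays moved the count of 4. With FLAG-SMN IP replicate 1 removed it was 10 of 34, with 6 higher and 4 lower (29.4% against 13.2% of all probe sets). With FLAG-SMN IP replicate 2 removed it was 1 (background 8.73%). Without control IP replicate 1 it was 7 (background 9.94%), and without control IP replicate 2 it was 0 (background 6.68%). With each array left out in turn, and in the other 7 alternatives, 0 of the members passed the adjusted threshold; the lowest adjusted p among members was 0.122, without FLAG-SMN IP replicate 1, where 350 of all probe sets passed (1.24%).

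The U RNA genes gave no difference larger than the spread between precipitates. Only Rnu12 and Rnu3a lay above the floor on all arrays. Rnu12 encodes U12, the snRNA that recognises the branch site of the minor class of introns and carries an Sm ring. Its log2 signals were 7.85, 9.53 and 9.46 in FLAG-SMN IP replicates 1, 2 and 3, and 9.59 and 8.23 in control IP replicates 1 and 2. The groups overlapped, with replicate 1 of FLAG-SMN IP lowest of all and control IP replicate 1 highest. The difference was 0.04 (SE 0.60; limma adjusted p = 0.999), between means of 8.95 ± 0.95 (SD, n = 3) and 8.91 ± 0.96 (SD, n = 2). Its 95% interval ran from -1.40 to 1.48, so these arrays leave room for a change of up to 2.63-fold down or 2.78-fold up.

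Rnu5g encodes U5, the snRNA of the tri-snRNP that holds the exon ends. It read 2.95, 4.50 and 5.12 in FLAG-SMN IP and 4.07 and 2.97 in control IP. Only FLAG-SMN IP replicates 2 and 3 were above their arrays' floors, and no fold is given. The difference was 0.67 (SE 0.64; limma adjusted p = 0.861), with overlapping groups. Rnu6 encodes U6, the catalytic snRNA with an LSm ring, and has many near-identical copies and pseudogenes in mammalian genomes. It read 2.10, 3.78 and 2.71 against 2.31 and 2.19, below the floor on every array. Rnu7 encodes U7, which is not spliceosomal: it serves 3′ processing of replication-dependent histone messages with a mixed Sm/LSm ring. It read 2.98, 2.75 and 3.33 against 3.10 and 3.35, also below the floor on every array. No fold is given for U6 and U7 (differences 0.61 and -0.20; limma adjusted p = 0.783 and 0.899).

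Rnu3a encodes U3, which the symbol rule takes in although it is a box C/D small nucleolar RNA of ribosomal RNA processing, with no Sm ring. It read 7.54, 10.67 and 10.41 in FLAG-SMN IP and 9.89 and 9.41 in control IP. Replicates 2 and 3 lay above both controls and replicate 1 far below them. The difference was -0.11 (SE 0.88; limma adjusted p = 0.996).

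**Figure D2:**
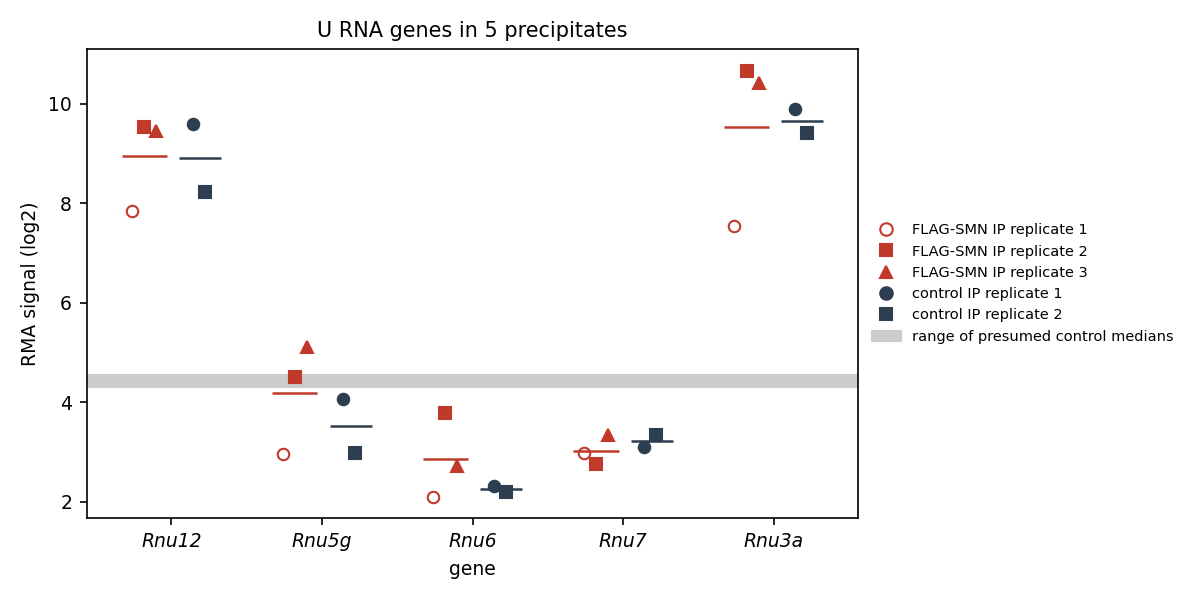
Log2 RMA signal (vertical axis) of the 5 U RNA genes (horizontal axis) in each array; red symbols are FLAG-SMN IP, dark symbols control IP, short lines the group means, and the grey band the range of the presumed control medians, 4.30 to 4.55. FLAG-SMN IP replicate 1 (open circles) is the lowest array for Rnu12, Rnu5g, Rnu6 and Rnu3a, and Rnu6 and Rnu7 lie below the band throughout.

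FLAG-SMN IP replicate 1 was the lowest array for Rnu12, Rnu3a, Rnu5g and Rnu6, but other arrays also differed. Control IP replicate 1 minus replicate 2 was 1.36 log2 units for Rnu12, 1.10 for Rnu5g, 0.48 for Rnu3a, 0.13 for Rnu6 and -0.25 for Rnu7. FLAG-SMN IP replicate 1 lay 1.65 log2 units below the mean of replicates 2 and 3 for Rnu12 (difference -1.65). That difference was -3.00 for Rnu3a, -1.86 for Rnu5g, -1.15 for Rnu6 and -0.056 for Rnu7. Of all probe sets, 6.61% were at least 1 unit away in either direction. The median over the 5 was -1.65, against -0.26 for the Sm core genes, -0.011 for the LSm genes, 0.37 for the assembly and transport genes and 0.025 over the whole array. Because FLAG-SMN IP replicate 1 lay low for Rnu12, Rnu3a, Rnu5g and Rnu6, leaving it out could only raise their differences. With that array left out, the median difference of the U RNA genes was 0.89 in place of 0.04. Rnu3a then had a difference of 0.89 (SE 0.24; limma adjusted p = 0.153). Rnu5g had 1.29 (limma adjusted p = 0.188) and Rnu6 1.00 (limma adjusted p = 0.25), and these were the 3 of the 5 at an unadjusted p under 0.05, which 13.2% of all probe sets had in that fit. Rnu12 had 0.59. None passed the adjusted threshold, and Rnu6 was below the floor in those arrays too. Whether replicate 1 or the others represent the FLAG-SMN precipitates was not tested.

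**Figure D3:**
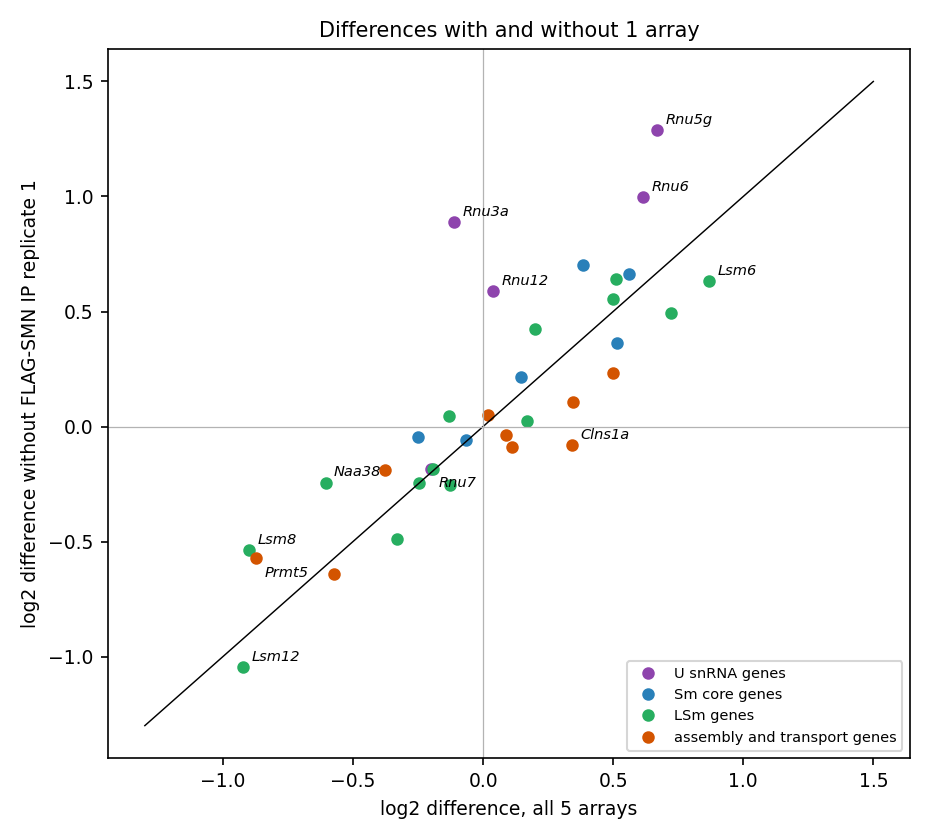
Log2 difference of each of the 34 genes with all 5 arrays (horizontal axis) and without FLAG-SMN IP replicate 1 (vertical axis), coloured by role; the diagonal marks equal values. Rnu3a, Rnu5g and Rnu12 lie farthest above the diagonal, while Lsm12 lies near it, at -0.92 and -1.05.

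The messenger RNAs of the Sm core had differences of either sign, from -0.25 (Snrpb) to 0.56 (Snrpg), with a median of 0.26 over the 6 genes. At the brightest probe set of each gene, 0 were at an unadjusted p under 0.05 in limma or past the adjusted threshold, 4 were positive and 2 negative, and the groups did not overlap at 2 (33.3%, against 25.3% of all probe sets). Snrpg (SmG) had log2 signals of 11.18, 11.68 and 11.31 in FLAG-SMN IP and 11.06 and 10.60 in control IP. Every FLAG-SMN array was above both controls, by as little as 0.12 log2 units. The difference was 0.56 (SE 0.24; 1.47-fold; limma adjusted p = 0.488). Its other probe set gave 0.64, with an unadjusted p under 0.05, and the probe set used had such a p in 5 of the 12 alternatives.

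Snrpd2 (SmD2) read 10.93, 10.43 and 10.53 against 10.27 and 9.96, again with no overlap, a difference of 0.51 (SE 0.23; limma adjusted p = 0.503). Snrpd2 has 5 probe sets, which may read processed copies of the same sequence and are not independent. Their differences ran from -0.016 to 0.87, 4 of them positive, 1 of them (0.87) with an unadjusted p under 0.05, and the probe set at -0.016 was also below the floor on all 5 arrays. Snrpe (SmE) read 9.69, 10.89 and 10.40 against 10.40 and 9.48, with overlapping groups and a difference of 0.38 (SE 0.41).

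The remaining Sm genes lay closer to 0. Snrpd1 (SmD1) read 9.57, 10.01 and 9.54 against 9.53 and 9.60, a difference of 0.14. Snrpd3 (SmD3) read 11.55, 11.59 and 11.55 against 11.76 and 11.50; its 3 FLAG-SMN values spanned 0.036 log2 units, and the difference was -0.067 (SE 0.18; 95% interval -0.49 to 0.36). Snrpb, the gene of SmB/B′, read 8.03, 8.60 and 8.68 against 8.94 and 8.42, a difference of -0.25 (SE 0.27). SmB, SmD1 and SmD3 are the Sm proteins whose tails carry the dimethylated arginines that SMN binds. The groups overlapped for each of their 3 genes.

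The LSm genes went both ways, 6 positive and 8 negative, with a median of -0.13 over 14 genes. The unadjusted limma p was under 0.05 for 1 higher and 1 lower gene (14.3%, against 10.4% of all probe sets), and 0 passed the adjusted threshold. The groups did not overlap at 6 of the 14, 2 higher and 4 lower (42.9%, against 25.3% of all probe sets). Lsm4 and Lsm7 were among the lower ones, apart by only 0.034 and 0.0034 log2 units. Lsm12, which encodes an Lsm-domain protein outside the RNA-binding rings, had the smallest p of the 34. It read 9.71, 9.11 and 9.57 in FLAG-SMN IP and 10.16 and 10.61 in control IP, with every FLAG-SMN array below both controls. The difference was -0.92 (SE 0.25; 1.90-fold lower; limma adjusted p = 0.262). It kept its sign in all 12 alternatives and an unadjusted p under 0.05 in 11 of them. With the groups apart, leaving out, weighting or pairing arrays could not turn that sign.

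Lsm3, a subunit shared by the nuclear LSm ring of U6 and the cytoplasmic ring of decapping, read 9.73, 10.02 and 9.78 against 9.49 and 9.19. The groups did not overlap, and the difference was 0.50 (SE 0.20; 1.41-fold; limma adjusted p = 0.445). Its unadjusted p was under 0.05, as in 5 of the 12 alternatives. Lsm8, the subunit that makes the ring nuclear, read 7.43, 8.41 and 8.64 against 8.80 and 9.31, with every FLAG-SMN array lower and replicate 1 lowest. Its difference was -0.90 (SE 0.38; limma adjusted p = 0.48), and without replicate 1 it was -0.54. Lsm6, another shared subunit, had the largest positive difference over all 5 arrays, 0.87 (SE 0.40; limma adjusted p = 0.54). It read 8.65, 7.87 and 7.99 against 7.92 and 6.69, so the groups overlapped and control IP replicate 2 stood low. The difference was 0.25 without that array and 1.48 without control IP replicate 1. The mean of its probe sets gave 0.46. All 3 of its probe sets were positive, from 0.24 to 0.87.

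The subunits of a single LSm ring thus did not share a sign. Of the 7 genes of the nuclear ring, LSm2 to LSm8, 3 were positive and 4 negative, with a median of -0.13; of the 7 of the cytoplasmic ring, in which Lsm1 takes the place of Lsm8, 3 were likewise positive and 4 negative. Lsm1 itself, the subunit that makes the ring cytoplasmic, had -0.24 (limma adjusted p = 0.833). The 2 genes of the U7 ring were positive: Lsm11 had 0.51 (limma adjusted p = 0.506), with no overlap between groups, and Lsm10 had 0.17. The 10 LSm genes not described array by array ran from -0.60 to 0.72, with limma adjusted p from 0.506 to 0.956. The lowest of them was Naa38, by its gene ID the Lsmd1 gene of an N-terminal acetyltransferase and not Lsm8, for which Naa38 is an older synonym. The highest was Lsm5, at 0.72 and with 3 positive probe sets of 3, from 0.40 to 0.96. The Lsm5 probe set at 0.96 had an unadjusted limma p under 0.05 and no overlap between groups, unlike the probe set used and the remaining one. The 2 probe sets of Lsm7 differed in sign (-0.33 and 0.097).

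Among assembly and transport genes, the enzyme and the partner of the methylosome had the lowest differences. Prmt5, the arginine methyltransferase, read 7.77, 8.53 and 8.80 in FLAG-SMN IP and 8.98 and 9.49 in control IP. Every FLAG-SMN array was below both controls, with replicate 1 lowest. The difference was -0.87 (SE 0.34; 1.83-fold lower; limma adjusted p = 0.433); without replicate 1 it was -0.57. Wdr77, its WD-repeat partner MEP50, read 8.73, 8.50 and 8.55 against 9.16 and 9.18. The replicates were tight, with SD 0.12 and 0.014, and the groups were apart. The difference was -0.57 (SE 0.18; 1.49-fold lower; limma adjusted p = 0.313). An unadjusted p under 0.05 held for Prmt5 in 9 of the 12 alternatives and for Wdr77 in 8. Both signs held in all 12, but with the groups apart, leaving out, weighting or pairing arrays could not turn them. A further probe set that carries the Wdr77 symbol together with another had a difference of 0.032, with overlapping groups. Clns1a, the gene of pICln, which delivers Sm proteins to the same methylosome, had 0.34 (SE 0.41). Its signal was 10.04 on the first FLAG-SMN array and 8.59 to 8.95 on the other 4. The sign rested on that array, since leaving it out gave -0.081.

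Genes acting after assembly, or in export before it, had no unadjusted p under 0.05 in limma. Snupn (snurportin, the import adaptor for the hypermethylated cap) read 6.24, 5.42 and 5.47 against 5.08 and 5.35, a difference of 0.50 (SE 0.29; limma adjusted p = 0.664). Its groups did not overlap, by 0.072 log2 units, and leaving out FLAG-SMN IP replicate 1 gave 0.23. Tgs1, the cap hypermethylase, had 0.02 (SE 0.28), and Coil, the gene of coilin, 0.087 (SE 0.20). For export, Phax had 0.35 (SE 0.33), and the cap-binding subunit genes Ncbp1 and Ncbp2 had -0.38 and 0.11. Over the 9 assembly and transport genes the median was 0.087, with 6 positive and 3 negative. Of the 9, 2 (Prmt5 and Wdr77) were at an unadjusted limma p under 0.05 (22.2%, against 10.4% of all probe sets).

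**Figure D4:**
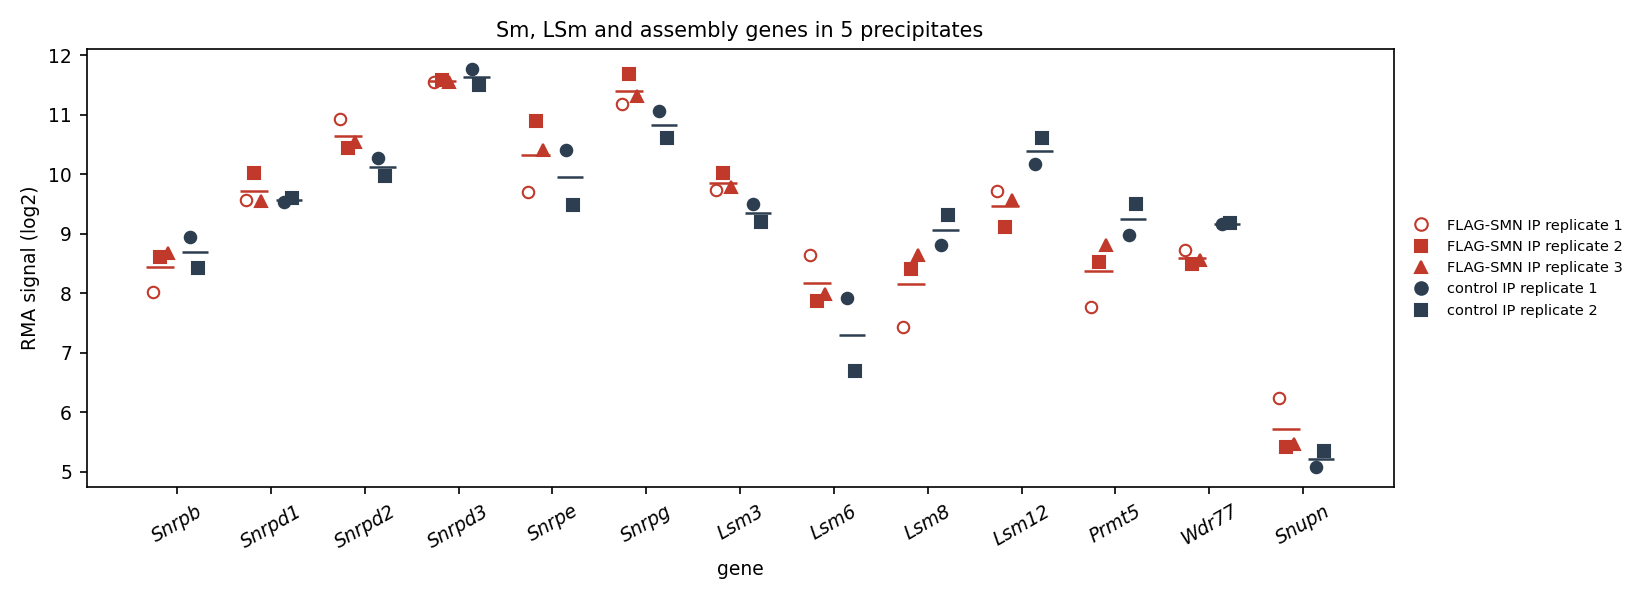
Log2 RMA signal (vertical axis) of the 13 protein-coding genes given array by array (horizontal axis); red symbols are FLAG-SMN IP, dark symbols control IP, and short lines the group means. Lsm12, Lsm8, Prmt5 and Wdr77 have all red symbols below both dark symbols, and Snrpd2, Snrpg, Lsm3 and Snupn the opposite; levels of different genes are not comparable.

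**Figure D5:**
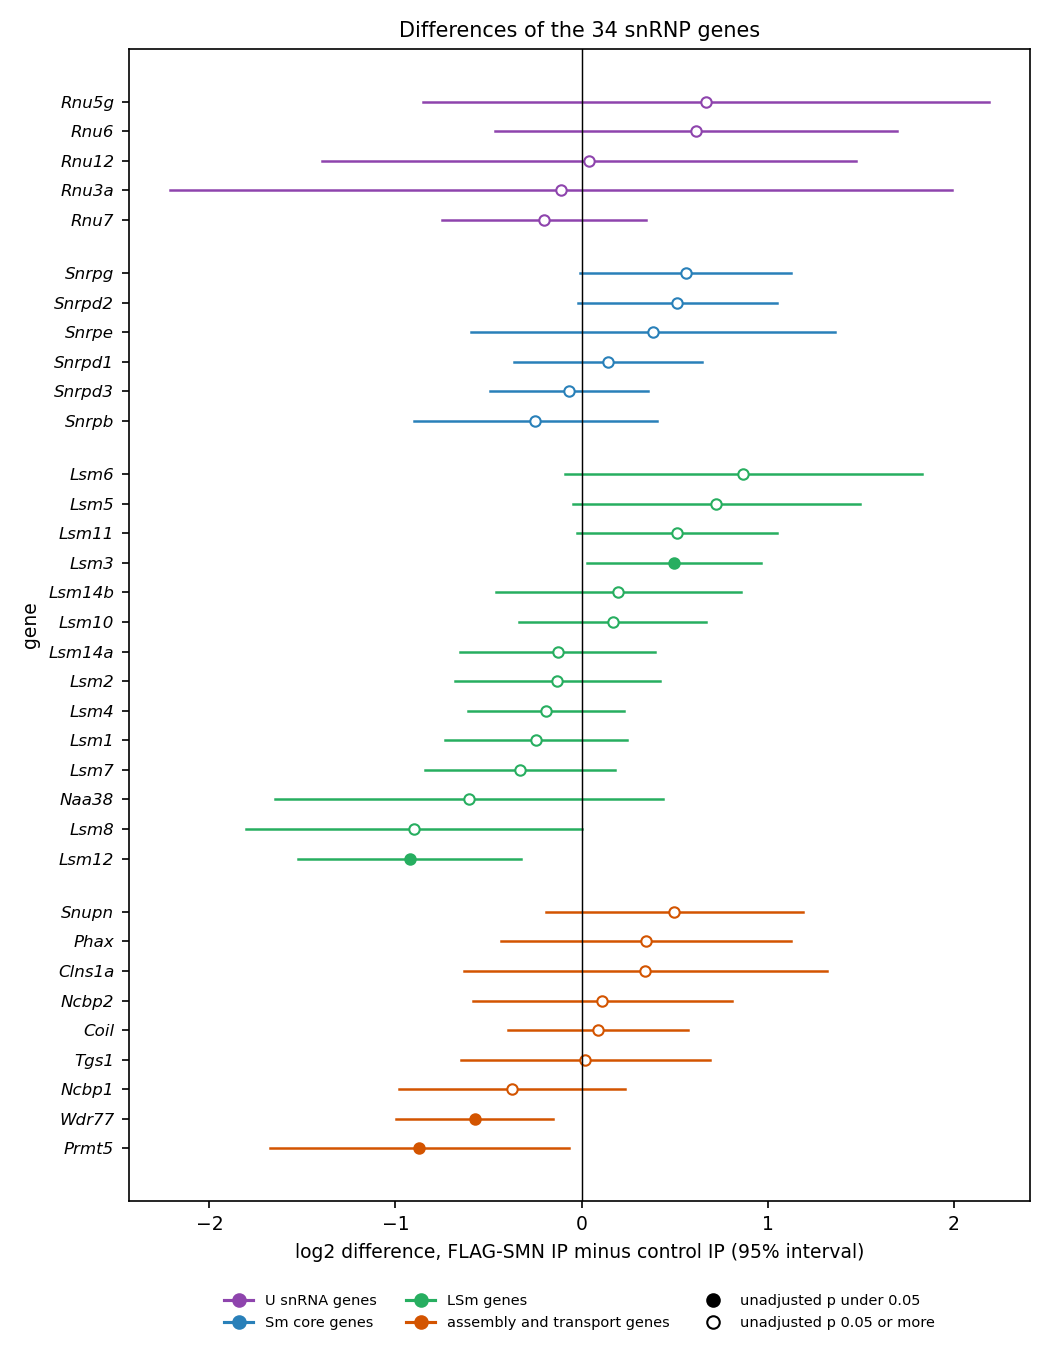
Log2 difference (horizontal axis; points) with its 95% interval from the moderated fit (lines) for all 34 genes, grouped by role; filled points have an unadjusted p under 0.05. The intervals of Lsm3, Lsm12, Prmt5 and Wdr77 do not cross 0, and the 4 widest belong to U RNA genes.

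The other genes of the snRNP pathway likewise had none past the adjusted threshold. Of 9 measured SMN complex genes, the unadjusted p was under 0.05 for 1 higher and 1 lower gene: Smn1 (difference 1.74, limma adjusted p = 0.0877) and Gemin7, a subunit of the complex (-1.0, limma adjusted p = 0.413). Of 37 genes of snRNP proteins outside the Sm and LSm rings, the counts at that p were 3 higher and 4 lower, with a median of -0.11. Over all probe sets the shares were 4.14% higher and 6.31% lower. The smallest p-values of the 37 belonged to Sf3a2, of the U2 snRNP (-1.57, limma adjusted p = 0.283), and Snrpa1, the U2 protein A′ (0.76, limma adjusted p = 0.374). Of 23 genes of snRNA transcription and 3′ end formation, 0 were higher and 4 lower, with a median of -0.21 against 0.018 over all probe sets. The background for lower probe sets was 6.31%. The list holds 14 measured genes of the Integrator complex, which cleaves the 3′ end of nascent snRNA. This subset was not itself among the lists, which were chosen with earlier results of these data known. Of the 14 differences 12 were negative, and the unadjusted limma p was 0.05 or more for 10. The signs come from the same arrays and are not independent, and whether the subset differs from all probe sets was not tested. The 4 lower genes were Ints8 (-0.88, limma adjusted p = 0.278), Ints13 (-0.65, limma adjusted p = 0.426), Ints4 (-0.57) and Ints1 (-0.79). Ints4 and Ints1 lie outside the naming rule and were named after their values were seen.

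Of 13 genes of snRNA export, import and end maturation, 0 were higher and 1 lower at an unadjusted limma p under 0.05. The shares over all probe sets were 4.14% higher and 6.31% lower. The lower gene was Larp7, a U6 and 7SK RNA-binding protein gene (-0.48, limma adjusted p = 0.473). Of 9 partners of the cytoplasmic LSm ring in decapping, 0 were higher and 1 lower: Ddx6, a helicase of processing bodies. It read 8.51, 8.45 and 8.75 against 9.40 and 9.81, with every FLAG-SMN array lower, and the difference was -1.04 (SE 0.21; limma adjusted p = 0.171). The 6 arginine methylation partners and the 7 genes of histone message processing with U7 had 0 higher and 0 lower genes by the same limma p, with medians of 0.025 and -0.08.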

How the data were processed

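The authors deposited 1 table of log2 values for 5 single-colour arrays; the scale was read from the values. Per the submitters' processing notes they come from RMA, which corrects background, quantile-normalizes and summarises probes, of a version and with settings not given in the sources used here. Per the labels' protocols, 300 to 500 ng of precipitated RNA was labelled, and differentiation is given as 3 days in one protocol and 48 hours before doxycycline in another. No array file names a genome build. Of 34760 probe sets, 6573 with IDs below the lowest annotated ID were taken as controls and left out; of the 28187 kept, 21640 carried 1 gene symbol, 1321 several and 5226 none. All 34 genes matched a RefSeq gene (GRCm38) by gene ID, with 0 symbols changed.

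Groups came from the sample titles. limma 3.58.1 in R 4.3.3 (lmFit, eBayes, 2-sided, no block) was fitted to all probe sets, with Benjamini-Hochberg adjustment over all 28187. Residual and prior degrees of freedom were 3 and 3.8, and the fit was tested on simulated data. The rule for named genes gave every U RNA and Sm gene in full, and of the LSm and assembly genes those with an unadjusted p under 0.05 and the 3 largest differences of each list. Of other pathway lists at most the 2 of smallest p were named. Members, lists and alternatives were chosen with earlier results of these data known, so no list is independent evidence. The number of arrays limits the precision. Figures used matplotlib 3.10.9 in Python 3.11.15.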

Additional observations from a re-analysis of the deposited data

Results flagged for a closer look

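Probe set 10500356, annotated to several U1 snRNA genes at once and so outside the comparisons above, had log2 signals of 8.69, 8.77 and 9.53 in FLAG-SMN IP and 7.92 and 8.17 in control IP. It was noted because a signal outside those comparisons lay above the control precipitates on every FLAG-SMN array, with an unadjusted limma p under 0.05. Of all probe sets, 12.1% lay above both controls on every FLAG-SMN array, and 4.14% were higher at that p. The U1 probe set was picked by these values from 10 that carry a member's symbol together with another. Its difference was 0.95 (SE 0.29; limma adjusted p = 0.311), which did not pass the adjusted threshold. The other 2 probe sets with the same symbols gave 0.67 and 1.11 (limma adjusted p = 0.836 and 0.861), with overlapping groups, and in both FLAG-SMN IP replicate 1 lay below replicates 2 and 3. With that replicate left out the differences of the 3 probe sets were 1.10, 1.23 and 2.22, in the same order. It was the lowest FLAG-SMN array at all 3, so leaving it out could only raise these differences. The effect of leaving out another array was not computed for them.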

How the results depend on the processing

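The 12 alternatives moved 0 of the 34 genes across the adjusted threshold, and of 405 recomputed differences 386 kept their sign. Part of the 386 could not change. Fitting all probe sets of the table, only the brighter ones, or with trended robust moderation leaves each difference as it was. Averaging the probe sets of a gene alters only genes with several. Where the groups do not overlap, leaving out an array cannot turn a sign either. Probe sets past the adjusted threshold, 9 in all, numbered 0 with the replicate number as a block, with cyclic loess scaling and with all probe sets of the table, 86 with array weights, and 0 to 350 with each array left out. The block uses replicate numbers that the labels do not tie to shared cultures. It leaves FLAG-SMN IP replicate 3 without a partner, so that array adds nothing to the block's differences. In that fit 6 of the 34 genes were at an unadjusted limma p under 0.05 (background 9.04%), against 4. The deviations of same-numbered arrays correlated at 0.13 and -0.20, and those of FLAG-SMN IP replicate 3 and control IP replicate 2 at 0.42. Leaving out each array gave 0 to 10 genes at that p, and medians of -0.22 to 0.89 for U RNA genes, 0.047 to 0.39 for Sm core genes, -0.15 to -0.0092 for LSm genes (-0.074 with cyclic loess scaling) and -0.081 to 0.29 for assembly and transport genes. With 1 control array left out, the lone control is assumed to vary like the others.

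Sign changes were confined to 19 recomputed values. Rnu12 was -0.22 with the block and ran from -0.64 (without control IP replicate 2) to 0.72 as each array was left out; it was -0.25 and -0.22 without FLAG-SMN IP replicate 2 or 3. Rnu3a was 0.52 with array weights and ran from -0.67 to 0.89 (without FLAG-SMN IP replicate 1), with 0.13 without control IP replicate 1. Leaving out FLAG-SMN IP replicate 1 turned the sign of Lsm2 (range -0.24 to 0.048), Clns1a (-0.081 to 0.65), Coil (-0.037 to 0.18) and Ncbp2 (-0.088 to 0.36). Ncbp2 was also -0.070 without control IP replicate 1. Leaving out FLAG-SMN IP replicate 2 turned Snrpd1 (-0.0077 to 0.23) and Tgs1 (-0.42 to 0.46; -0.049 without it). Leaving out control IP replicate 1 turned Snrpb (-0.51 to 0.012), Snrpd3 (-0.20 to 0.065) and Tgs1 (-0.42). Leaving out control IP replicate 2 turned Snrpe (-0.074 to 0.84) and Lsm14a (-0.28 to 0.020). The cause was not tested.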

Other observations

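In all, 10 probe sets carried a member's symbol together with another, and no value is assigned to a single gene from them. Differences were positive at 9 of the 10, but several carry the same U1 or U2 symbols and are not independent. Of the 10, 1 was at an unadjusted limma p under 0.05 (the U1 probe set above), beside 10.4% of all probe sets. The adjusted threshold was passed by 0, beside 0.0319% of all probe sets. The 3 probe sets that pair a U2 gene with a protein-coding symbol had differences of 0.32, 0.76 and 0.23, and of 0.79, 1.54 and 0.69 with FLAG-SMN IP replicate 1 left out. The brightest of these read 11.95, 13.06 and 13.68 in FLAG-SMN IP and 12.51 and 12.65 in control IP. The probe set of several U3 variant genes read 7.44, 10.28 and 10.12 against 9.38 and 10.01, a difference of -0.42 (limma adjusted p = 0.964), which was 0.50 with FLAG-SMN IP replicate 1 left out. FLAG-SMN IP replicate 1 was the lowest of all 5 arrays at 6 of the 10 probe sets. These included the U2 and U3 probe sets, so leaving that array out could only raise their differences.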
